A study of Pan troglodytes with 6 samples.

Results

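Axon guidance ligands and receptors were described in chimpanzee (Pan troglodytes) RNA of cerebellum and liver, profiled on Affymetrix Human Exon 1.0 ST arrays, whose probes were designed on the human genome. The genes were chosen by symbol: ephrins (EFNA, EFNB) and their Eph receptors (EPHA, EPHB), semaphorins (SEMA), plexins (PLXN), neuropilins (NRP), netrins (NTN, NTNG), UNC5 receptors and DCC, and SLIT and ROBO genes. This gave 61 of the 12584 genes named by a feature with 1 symbol. One of the 61, UNC50, matches the UNC5 pattern by its letters only and is not a netrin receptor, so 60 guidance genes are described, of which 31 encode ligands and 29 receptors. Each tissue had 3 arrays, all labelled as biological replicates. For both tissues the labels give a 27-year-old female for replicate 1 and males aged 37 and 30 for replicates 2 and 3, and no genotype or treatment is labelled.

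Guidance proteins steer growing axons and migrating cells by attraction or repulsion. Ephrins are bound to the cell surface and act on Eph receptor tyrosine kinases of a neighbouring cell, while semaphorins act through plexins, with neuropilins as co-receptors for the secreted class 3. Netrins act through DCC and UNC5 receptors, and Slits through ROBO receptors. Many of these proteins stay in use in adult tissue, at synapses and in myelinating cells of the brain, and in the lining of blood vessels.

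Each value is an intensity on a linear scale that had been background-subtracted and quantile normalized, so the 6 arrays share one distribution with a median of 96.3. Arrays of one tissue correlated across features with Pearson's r of 0.947 to 0.977 for cerebellum and 0.906 to 0.950 for liver, and arrays of different tissues with 0.445 to 0.507, which describes the arrays only. The tissues carried their markers. The sum over 8 granule cell markers was 10009.9 to 11417 on cerebellum arrays and 231 to 281 on liver arrays, and that over 7 hepatocyte markers was 117 to 200.5 and 18673 to 23006. Differences below are cerebellum minus liver on the scale log2(intensity + 16.8), with their standard error (SE), and a gene is called where limma's p, adjusted by Benjamini-Hochberg over all 15143 features, is under 0.05. Means are given with the SD over 3 arrays per tissue. For 3 arrays against 3 the smallest two-sided p of an exact permutation test is 0.1, so no such test is given for single genes.

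On the deposited scale the guidance genes as a set did not lean clearly to one tissue. Of the 61, 19 were called higher in cerebellum (31.1%, against 26.7% of all features) and 14 higher in liver (23.0%, against 23.9% of all features), both near the background, in which 50.6% of features were called in one direction or the other. The median log2 difference was 0.12 over the 61 genes and 0.04 over all features. With a difference of at least 2-fold as well, 14 were higher in cerebellum (17.2% of all features passed) and 10 higher in liver (15.8% of all features). The 3 cerebellum values lay wholly above the liver values for 20 genes (31.0% of all features) and wholly below for 16 (28.5% of all features), and such separation in either direction held for 59.4% of all features. UNC50, a protein of the Golgi, averaged 169.5 ± 13.2 in cerebellum and 144 ± 33.1 in liver and was not called (adjusted p = 0.357). Of 15 families or subfamilies with several measured genes, 5 held calls in both directions (Eph A, Eph B, ephrin A, semaphorin 4 and plexin B). The arrays were also aligned on 110 genes of general functions, which moved the median log2 difference of all features to 0.23. The calls of EFNB1, NTN3, PLXNB1 and SEMA4G toward liver were then not made (adjusted p = 0.121, 0.0755, 0.134 and 0.0720). Under this alignment 20 of the 61 genes were called toward cerebellum and 10 toward liver. Of these calls 66.7% lay toward cerebellum, against 62.5% of the calls over all features.

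**Figure D1:**
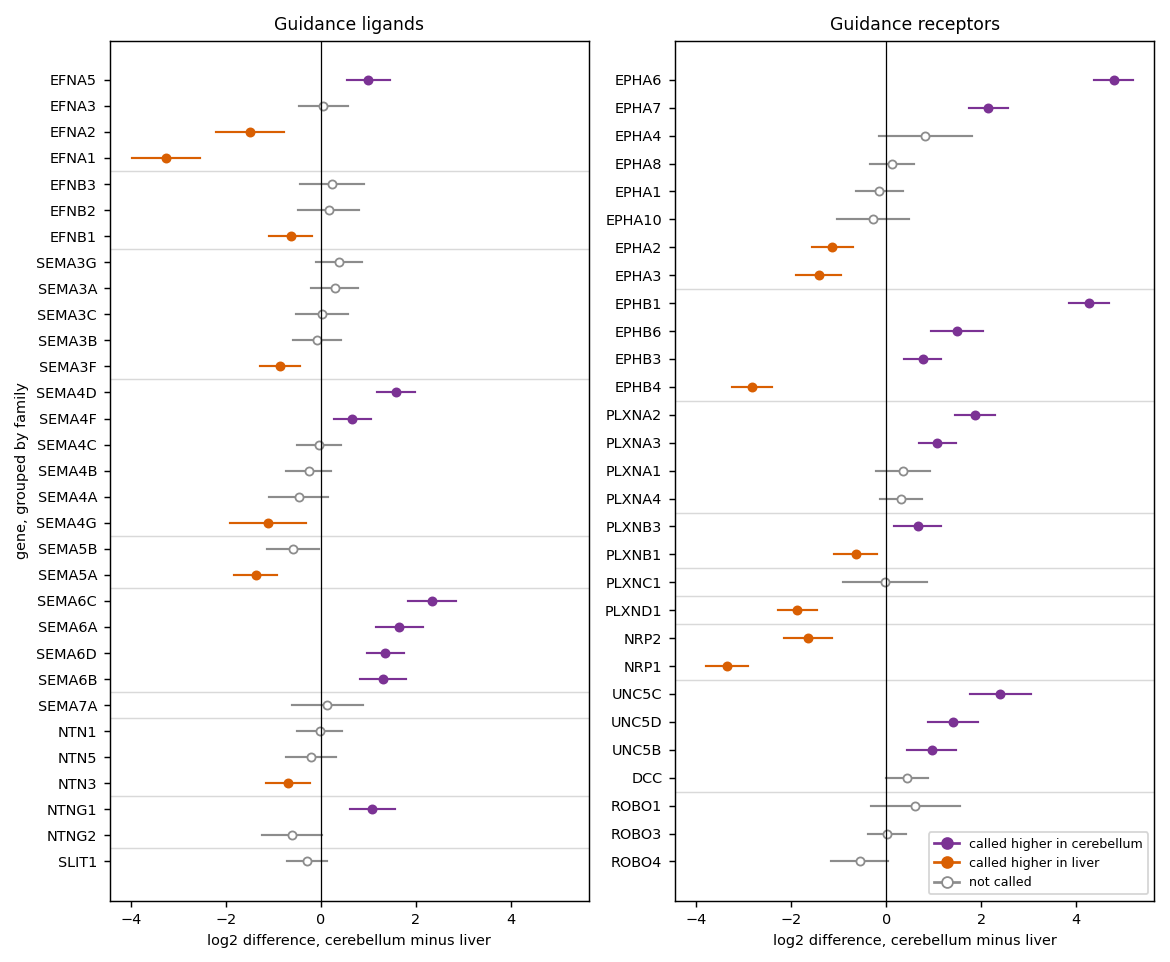
Log2 difference of each of the 31 ligand and 29 receptor genes, cerebellum minus liver, grouped by family with thin lines between families. Points are estimates, bars their 95% confidence intervals from limma without adjustment, and filled points are called genes. EPHA6 and EPHB1 lie farthest right and NRP1 and EFNA1 farthest left, and all 4 class 6 semaphorins lie to the right of 0.

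Among the ephrins, the ligands of Eph receptors, 3 of 7 genes were higher in liver (42.9%, against 23.9% of all features). The 1 ephrin higher in cerebellum made 14.3%, against 26.7% of all features. EFNA1, known as a gene that endothelial cells induce in inflammation, was at 40.5, 39.6 and 39.0 on the cerebellum arrays and at 699, 703 and 298 on the liver arrays. Its log2 difference was -3.27 (SE 0.31, adjusted p = 4.59e-05). The tissues did not overlap, although liver replicate 3 was under the other livers, and without that array the difference was -3.67. EFNA2, another membrane-anchored ephrin, was at 15.3, 19.6 and 25.1 in cerebellum and at 142, 47.4 and 89.0 in liver (log2 difference -1.49, SE 0.31, adjusted p = 0.00410). Its liver values were far apart, but all exceeded the cerebellum values. EFNB1, a transmembrane ephrin, was at 62.0, 55.5 and 83.4 in cerebellum and at 108, 134 and 97.9 in liver, a log2 difference of -0.64 (SE 0.20, adjusted p = 0.0251). That call did not last when cerebellum replicate 1 (adjusted p = 0.0827), cerebellum replicate 2 (0.0741) or liver replicate 2 (0.0877) was left out.

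The ephrin called in the other direction was EFNA5, which repels growing axons in the visual system of mice. It was at 35.5, 39.3 and 43.3 on cerebellum arrays and at 5.54, 13.9 and 15.4 on liver arrays. The log2 difference of 1.00 (SE 0.19, adjusted p = 0.00275) rests on dim values, and at a pseudocount of 38.3 it was 0.64, still called. EFNA3 averaged 69.1 ± 17.7 in cerebellum and 66.3 ± 16.0 in liver, and its log2 difference was 0.05 with a 95% interval from -0.47 to 0.56. EFNA1 and EFNA3 are adjacent protein-coding genes in the RefSeq annotation of the chimpanzee genome (assembly NHGRI_mPanTro3-v2.0_pri), and the interval of EFNA1, from -3.99 to -2.55, does not meet that of EFNA3. EFNB2, the partner of EPHB4 in the mouse vasculature, was at 58.0, 146 and 71.7 in cerebellum and at 77.6, 78.9 and 68.5 in liver and was not called (adjusted p = 0.663). EFNB3 was dim in both tissues, at means of 29.7 and 23.8 in cerebellum and liver (adjusted p = 0.537).

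Among the semaphorins, all 4 class 6 genes, which encode transmembrane ligands, were higher in cerebellum. This was the one class of semaphorins in which every measured gene was called. Over all features, 26.7% were called in this direction and 31.0% had all cerebellum values above the liver values. SEMA6C was at 282, 178 and 191 in cerebellum and at 36.4, 22.5 and 27.3 in liver, a log2 difference of 2.35 (SE 0.22, adjusted p = 4.03e-05). SEMA6A, which in mice takes part in the migration of cerebellar granule cells together with plexin A2, averaged 399 ± 96.0 in cerebellum and 114 ± 16.2 in liver (log2 difference 1.65, SE 0.22). SEMA6D and SEMA6B differed by 1.36 (SE 0.17) and 1.30 (SE 0.21). For each of the 4 genes the lowest cerebellum value exceeded the highest liver value, and each stayed called with the arrays aligned on general genes, at both other pseudocounts and with each array left out.

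Class 4 semaphorins, also transmembrane, were mixed, with 2 of 6 higher in cerebellum and 1 higher in liver. These are 33.3% and 16.7%, against 26.7% and 23.9% of all features. SEMA4D, the ligand of plexin B1 and of CD72 on lymphocytes, was at 134, 109 and 121 on cerebellum arrays and at 23.1, 33.5 and 31.4 on liver arrays (log2 difference 1.59, SE 0.18, adjusted p = 1.09e-04). SEMA4F averaged 59.2 ± 5.48 in cerebellum and 31.3 ± 5.06 in liver (log2 difference 0.66, adjusted p = 0.0110), and the call did not last without cerebellum replicate 3 (adjusted p = 0.0520). SEMA4G was at 92.3, 80.0 and 94.1 in cerebellum and at 352, 240.3 and 109 in liver. The livers were unlike each other, and the difference of -1.12 (SE 0.35, adjusted p = 0.0274) became -0.77 without liver replicate 1 (adjusted p = 0.0709) and -1.55 without liver replicate 3 (adjusted p = 6.49e-04). Without cerebellum replicate 1, 2 or 3 or liver replicate 2 it was not called either (adjusted p = 0.0653, 0.0791, 0.0652 and 0.0891). SEMA4A, SEMA4B and SEMA4C were not called, with differences from -0.47 to -0.04. SEMA4A was called higher in liver only when liver replicate 2 was left out (log2 difference -0.74, adjusted p = 0.0367).

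The secreted class 3 semaphorins held 1 call among 5 genes, where 50.6% of all features were called in either direction. SEMA3F, the ligand of neuropilin 2, was at 28.0, 44.3 and 32.2 in cerebellum and at 76.1, 83.9 and 69.6 in liver (log2 difference -0.86, SE 0.18, adjusted p = 0.00426). SEMA3A, the ligand of neuropilin 1 that collapses growth cones, was dim in both tissues at 20.2 ± 5.62 in cerebellum and 13.8 ± 6.84 in liver (adjusted p = 0.303), and so was SEMA3C at 22.0 ± 7.14 and 22.0 ± 10.9. SEMA3B and SEMA3G averaged 73.2 and 68.1 in cerebellum and 79.9 and 49.96 in liver. Neither was called, and SEMA3G was called higher in cerebellum only without liver replicate 1 (log2 difference 0.58, adjusted p = 0.0310). Of the class 5 semaphorins, which carry thrombospondin repeats, SEMA5A was at 30.4, 41.5 and 29.7 in cerebellum and at 141, 96.3 and 108 in liver (log2 difference -1.37, SE 0.20, adjusted p = 4.72e-04). SEMA5B averaged 87.6 ± 2.91 and 146 ± 52.0. Its tissues did not overlap, yet it was not called (adjusted p = 0.0671) unless liver replicate 3 was left out (log2 difference -0.81, adjusted p = 0.0128). SEMA7A, the single class 7 gene, which is anchored to the membrane by a lipid, averaged 188 ± 32.7 in cerebellum and 182 ± 81.5 in liver.

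Of the 6 netrin, netrin G and Slit genes measured, NTNG1 was called higher in cerebellum and NTN3 higher in liver, where 50.6% of all features were called in either direction. NTN1, the founding netrin of vertebrates, averaged 79.9 ± 14.7 in cerebellum and 82.5 ± 18.7 in liver, and its log2 difference was -0.03 with a 95% interval from -0.51 to 0.45. NTN3 was at 48.9, 59.5 and 51.2 in cerebellum and at 95.2, 125 and 74.0 in liver (log2 difference -0.69, SE 0.20, adjusted p = 0.0206). This call did not last without cerebellum replicate 1 (adjusted p = 0.0718), cerebellum replicate 3 (0.0717) or liver replicate 2 (0.0694). The netrin G proteins are lipid-anchored adhesion ligands of synapses and do not bind DCC. NTNG1 was at 59.0, 78.2 and 49.7 in cerebellum and at 25.1, 22.1 and 14.1 in liver (log2 difference 1.08, SE 0.21, adjusted p = 0.00238). NTNG2 was not called with all arrays, averaging 79.8 ± 4.90 in cerebellum against 137 ± 53.1 in liver (log2 difference -0.60, adjusted p = 0.102), and was higher in liver without liver replicate 3 (log2 difference -0.93, adjusted p = 0.00252). SLIT1 was at 56.9, 62.8 and 63.3 in cerebellum and at 101, 69.6 and 69.3 in liver, which do not overlap, and was not called (log2 difference -0.30, adjusted p = 0.214).

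**Figure D2:**
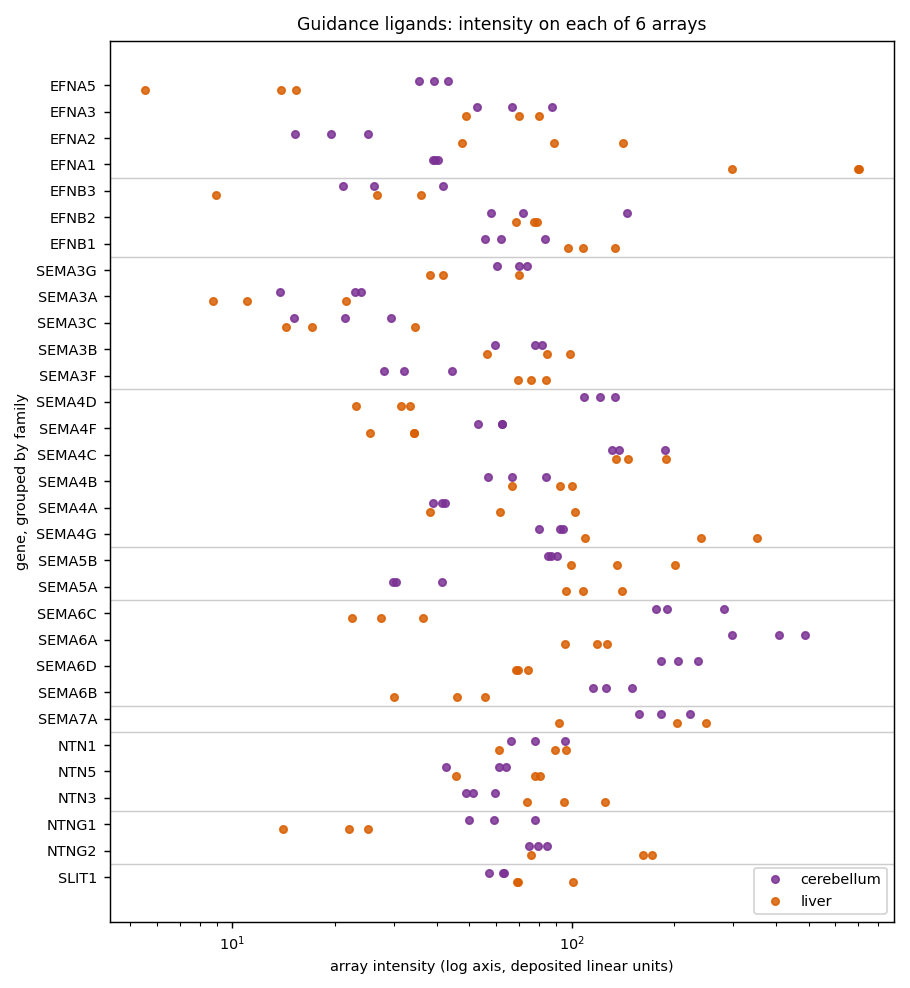
Intensity of the 31 guidance ligand genes on each of the 3 cerebellum arrays (upper points in each row) and 3 liver arrays (lower points), on a log axis and grouped by family. The cerebellum and liver points of the 4 class 6 semaphorins stand apart, with cerebellum higher, those of EFNA1 stand apart with liver higher, and those of SEMA3A, SEMA3B, SEMA3C, SEMA3G and NTN1 overlap.

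The Eph receptors held the largest differences toward cerebellum of all the guidance genes. EPHA6, a receptor of A ephrins, was at 1229, 1137 and 993 on cerebellum arrays and at 19.4, 28.0 and 26.1 on liver arrays. Its log2 difference was 4.78 (SE 0.18, adjusted p = 3.03e-07). A second feature with the same symbol, dimmer and set aside, averaged 291 in cerebellum and 0.224 in liver, and with liver values that near 0 no size is given for its difference. EPHB1, a receptor of B ephrins, was at 457, 483 and 381 in cerebellum and at 11.0, 5.45 and 4.97 in liver (log2 difference 4.26, SE 0.18, adjusted p = 5.51e-07). The liver values of EPHB1 are below 16.8, so the size of its difference depends on the pseudocount and ranged from 3.39 to 4.71 over the alternatives. EPHA7, which acts in the patterning of the brain, was at 122, 109 and 132 in cerebellum and at 17.9, 9.16 and 16.4 in liver (log2 difference 2.15, SE 0.18, adjusted p = 2.28e-05). Its liver mean of 14.5 is also below 16.8, and its difference ranged from 1.60 to 2.43 over the alternatives. EPHB6, an Eph protein without kinase activity, and EPHB3 were also higher in cerebellum, by 1.48 (SE 0.24) and 0.76 (SE 0.17).

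Eph receptors that were higher in liver were EPHB4, EPHA3 and EPHA2. EPHB4, the Eph receptor of venous endothelium, was at 27.1, 24.1 and 23.7 on cerebellum arrays and at 267, 343 and 237 on liver arrays. Its log2 difference of -2.83 (SE 0.18, adjusted p = 5.08e-06) is opposite in sign to those of the other 3 EPHB genes measured, and the intervals of these genes do not meet that of EPHB4. EPHA3 was at 18.3, 26.1 and 19.5 in cerebellum and at 74.7, 71.2 and 114 in liver (log2 difference -1.42, SE 0.21, adjusted p = 5.35e-04). EPHA2, a receptor known from epithelia, was at 75.5, 91.1 and 98.0 in cerebellum and at 214, 178 and 254.9 in liver (log2 difference -1.14, SE 0.19, adjusted p = 0.00120). In all 3 genes the lowest liver value exceeded the highest cerebellum value, as it did for 28.5% of all features.

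The remaining Eph A genes were not called. EPHA4, which serves axon guidance and synapses and binds both ephrin classes, was at 111, 236 and 86.8 in cerebellum and at 131, 59.7 and 36.9 in liver (log2 difference 0.82, adjusted p = 0.142). It varied within both tissues, and it was called only without liver replicate 1 (log2 difference 1.22, adjusted p = 0.0342). EPHA8, EPHA1 and EPHA10 had log2 differences of 0.12, -0.15 and -0.28, each with an interval that holds 0. In all, 5 of 12 Eph receptors were higher in cerebellum (41.7%, against 26.7% of all features). Another 3 were higher in liver, a share near the 23.9% of all features, and 4 were not called.

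Both neuropilins were higher in liver, where 23.9% of all features were called in this direction. NRP1, a co-receptor of class 3 semaphorins and of vascular endothelial growth factor, was at 34.7, 36.5 and 32.0 on cerebellum arrays and at 419, 481 and 636 on liver arrays. Its log2 difference of -3.35 (SE 0.19, adjusted p = 2.63e-06) was the largest toward liver of the 61 genes. NRP2 was at 39.3, 44.4 and 31.7 in cerebellum and at 117, 154 and 207 in liver (log2 difference -1.65, SE 0.22, adjusted p = 3.53e-04). Neither gene overlapped between the tissues, and 28.5% of all features were separated in this direction.

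Plexins, the signalling receptors of semaphorins, gave calls in both directions. Of 8 plexins 3 were higher in cerebellum (37.5%, against 26.7% of all features). The 2 higher in liver made a share near the 23.9% of all features. PLXNA2, the receptor of SEMA6A, was at 275, 309.7 and 302 in cerebellum and at 60.6, 60.2 and 88.1 in liver (log2 difference 1.87, SE 0.19, adjusted p = 5.75e-05). PLXNA3 was higher in cerebellum by 1.08 (SE 0.17), while PLXNA1 and PLXNA4 had differences of 0.34 and 0.31 and were not called. PLXND1, a plexin of endothelial cells, went the other way, at 29.1, 29.6 and 24.8 in cerebellum and at 123, 147 and 174 in liver (log2 difference -1.88, SE 0.18, adjusted p = 4.49e-05). The B plexins were divided and their calls fragile. PLXNB1, the receptor of SEMA4D, was at 131, 130.2 and 133 in cerebellum and at 256, 239 and 163 in liver (log2 difference -0.65, SE 0.20, adjusted p = 0.0249), and the call was lost on leaving out any single array other than liver replicate 3 (adjusted p from 0.0569 to 0.0821). PLXNB3 was at 95.6, 59.3 and 82.3 in cerebellum and at 47.7, 50.7 and 32.5 in liver (log2 difference 0.66, SE 0.21, adjusted p = 0.0306), and was not called without cerebellum replicate 1 (adjusted p = 0.115), cerebellum replicate 3 (0.0998) or liver replicate 3 (0.0760). PLXNC1, the receptor of SEMA7A, was at 63.3, 160 and 99.4 in cerebellum and at 79.1, 70.8 and 190.1 in liver and was not called (adjusted p = 0.960).

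Every measured UNC5 and DCC gene had its 3 cerebellum values above its 3 liver values, and 3 of these 4 netrin receptor genes were called. Over all features 31.0% were so separated and 26.7% called in this direction. UNC5C, whose loss in mice disturbs the layout of the cerebellum, was at 135, 317 and 172 in cerebellum and at 22.5, 22.0 and 25.6 in liver (log2 difference 2.40, SE 0.28, adjusted p = 1.51e-04). UNC5D and UNC5B, the second also an endothelial receptor, were higher in cerebellum by 1.41 (SE 0.23) and 0.95 (SE 0.23). The liver mean of UNC5D, 14.9, is below 16.8, and its difference ranged from 0.99 to 1.62 over the alternatives. DCC, the attractive netrin receptor, was dim at 30.7, 47.4 and 31.6 in cerebellum and at 19.8, 27.8 and 19.2 in liver and was not called (log2 difference 0.44, adjusted p = 0.0867), except with the arrays aligned on general genes (log2 difference 0.63, adjusted p = 0.0199). ROBO receptors were not called. ROBO1 was at 249, 137 and 225 in cerebellum and at 108, 66.2 and 248 in liver (log2 difference 0.61, adjusted p = 0.244), and only without liver replicate 3 was it called higher in cerebellum (log2 difference 1.07, adjusted p = 0.0182). ROBO4, the ROBO of endothelial cells, was at 94.0, 40.4 and 50.7 in cerebellum and at 77.5, 105 and 102 in liver (log2 difference -0.56, adjusted p = 0.110), and only without cerebellum replicate 1 was it called higher in liver (log2 difference -0.84, adjusted p = 0.0192). ROBO3, its neighbour in the RefSeq annotation, averaged 33.8 ± 3.73 in cerebellum and 33.6 ± 7.20 in liver.

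**Figure D3:**
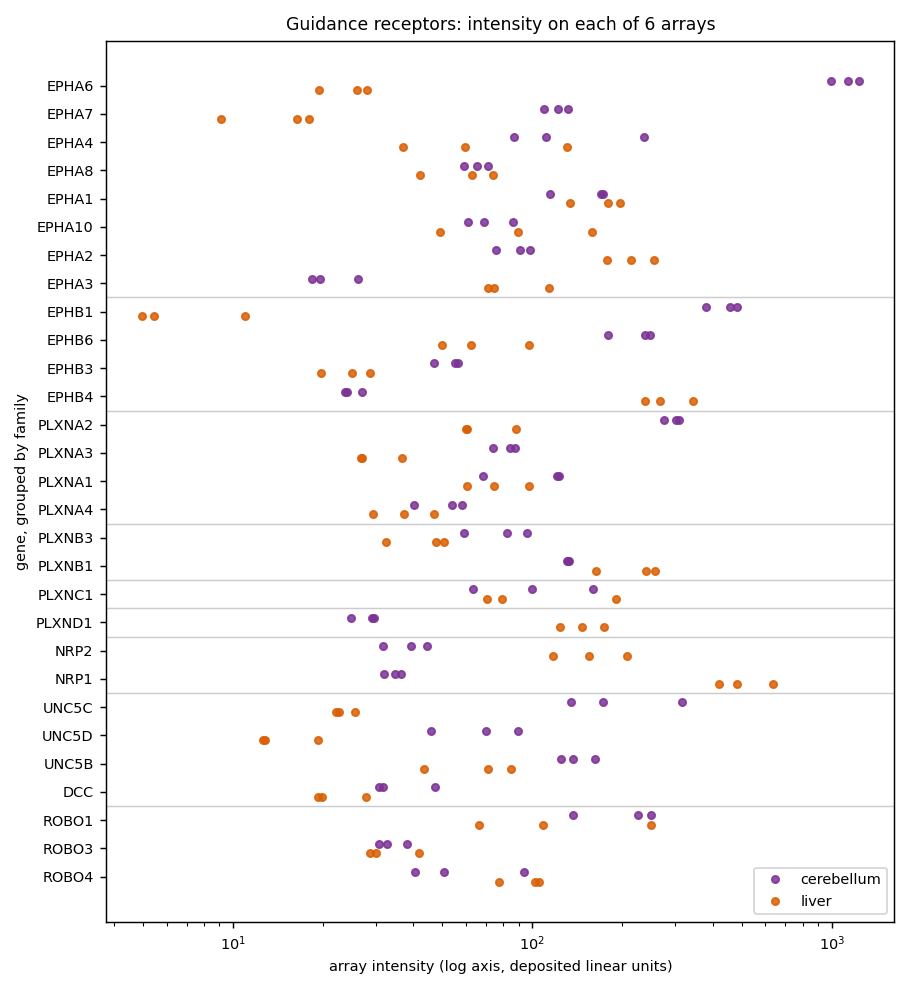
Intensity of the 29 guidance receptor genes on each of the 3 cerebellum arrays (upper points in each row) and 3 liver arrays (lower points), on a log axis and grouped by family. EPHA6 spans 993 to 1229 in cerebellum and 19.4 to 28.0 in liver, NRP1 spans 32.0 to 36.5 and 419 to 636, and liver replicate 3 puts a point of ROBO1 and of PLXNC1 among or above the cerebellum values.

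Known ligands and receptors were set side by side for 15 pairs, which were chosen with the values known. In 4 pairs both genes were called in the same direction. SEMA6A and PLXNA2 were both higher in cerebellum, as were EFNA5 and EPHA7, while EFNA1 and EPHA2 were both higher in liver, as were SEMA3F and NRP2. In 4 other pairs both were called in opposite directions. SEMA4D was higher in cerebellum (1.59) and its receptor PLXNB1 higher in liver (-0.65), and SEMA5A was higher in liver (-1.37) and its receptor PLXNB3 higher in cerebellum (0.66). EFNB1 and EPHB1, with -0.64 and 4.26, and EFNA5 and EPHA3, with 1.00 and -1.42, also had opposite signs. The 4 pairs in the same direction were found with each array left out in turn, while the count in opposite directions was 1 without cerebellum replicate 1, 2 without cerebellum replicate 2 or 3 or liver replicate 2, and 3 without liver replicate 1 or 3. With the arrays aligned on general genes it was 2, and the pair that kept opposite calls in each of these was EFNA5 with EPHA3. In 5 pairs a single gene was called. NRP1 differed by -3.35 and its ligand SEMA3A by 0.29, EPHB4 by -2.83 and EFNB2 by 0.16, and UNC5C by 2.40 and NTN1 by -0.03. In 2 pairs, NTN1 with DCC and SEMA7A with PLXNC1, neither gene was called.

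**Figure D4:**
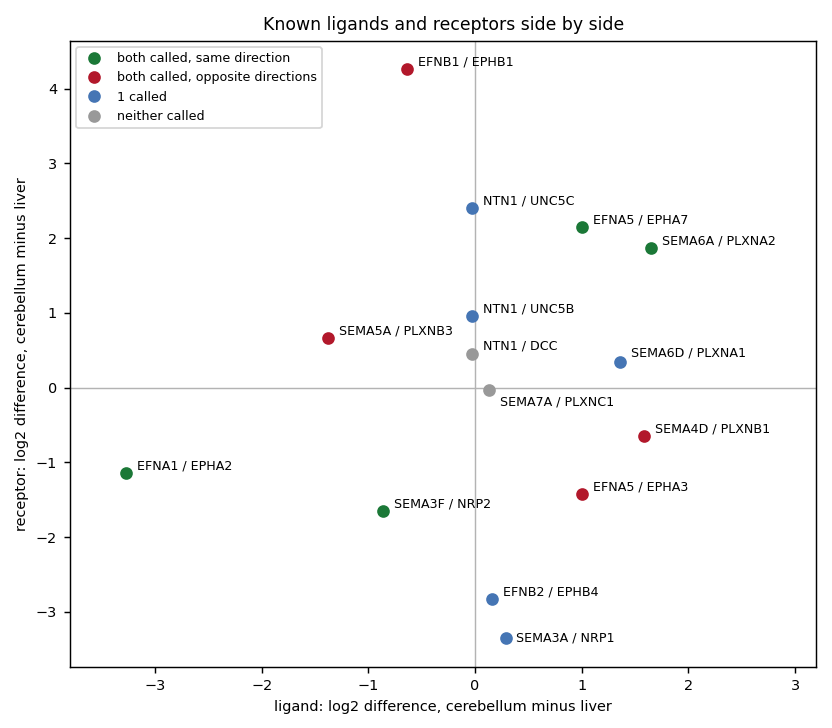
Log2 difference (cerebellum minus liver) of the receptor against that of its ligand for 15 known pairs, each point labelled ligand / receptor. Points at the upper right and lower left are pairs higher in the same tissue, and colours give which genes were called, with 4 pairs called in the same direction and 4 in opposite directions.

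Genes that work with these receptors were taken from 4 lists, which were chosen with earlier results of these data known. The shares below therefore describe the lists and are not a test. Of 26 measured partners outside the chosen families (co-receptors, other ligands and other receptors), 17 were higher in cerebellum (65.4%, against 26.7% of all features) and 4 higher in liver (15.4%, against 23.9%). Their median log2 difference was 0.86, against 0.04 over all features. CHL1 and CNTN1, neuronal adhesion molecules, averaged 1558 ± 99.5 and 2231 ± 162 in cerebellum and 17.5 ± 2.36 and 33.1 ± 3.39 in liver, giving log2 differences of 5.52 and 5.49 (adjusted p = 1.51e-07 for both). LRRC4C and LRRC4, the receptors of netrin G1 and G2, were higher in cerebellum by 1.45 and 1.92, and so was the UNC5 ligand FLRT3 by 1.39. The 2 largest toward liver were MET, the receptor of hepatocyte growth factor, which can pair with plexin B1, and KDR, the growth factor receptor that pairs with neuropilin 1. MET averaged 17.2 ± 1.49 in cerebellum and 545 ± 93.5 in liver (log2 difference -4.04, adjusted p = 6.36e-07), and KDR 22.4 ± 15.0 and 365 ± 168 (log2 difference -3.25, adjusted p = 1.29e-04). ITGB1 and PTPRF were the other 2, at -1.90 and -2.39.

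Effectors inside the cell showed calls in both directions. Of 26 measured effectors of semaphorins and plexins, 11 were higher in cerebellum (42.3%, against 26.7% of all features) and 5 higher in liver (19.2%, against 23.9%), with a median log2 difference of 0.15. CDK5R1, the activator of the kinase CDK5, averaged 503 ± 201 in cerebellum and 25.3 ± 3.24 in liver (log2 difference 3.56), and CRMP1, a collapsin response mediator, 466 ± 168 and 40.2 ± 20.9 (log2 difference 3.10). The GTPases of the Rnd family, which bind plexins, were split, with RND2 higher in cerebellum by 1.98 and RND3 and RND1 higher in liver by -3.81 and -3.05. Of 20 effectors of netrins and Slits, 10 were higher in cerebellum and 4 higher in liver, beside the same 26.7% and 23.9% of all features (median 0.78). MAP1B, a microtubule protein, and SRGAP3, a Slit-Robo GTPase-activating protein, differed by 4.88 and 3.53, and DAPK1, a death-associated kinase that binds UNC5B, and VASP, an actin regulator, by -1.90 and -1.71. The count toward liver on this list was 2 without cerebellum replicate 3 or without liver replicate 2. Of 20 effectors of Ephs and ephrins, 5 were higher in each tissue, near the shares over all features (median -0.06). CHN1 and TIAM1, regulators of the GTPase Rac, differed by 5.18 and 4.96, and the Src-family kinase YES1 and the exchange factor VAV2 by -2.04 and -1.89.

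**Figure D5:**
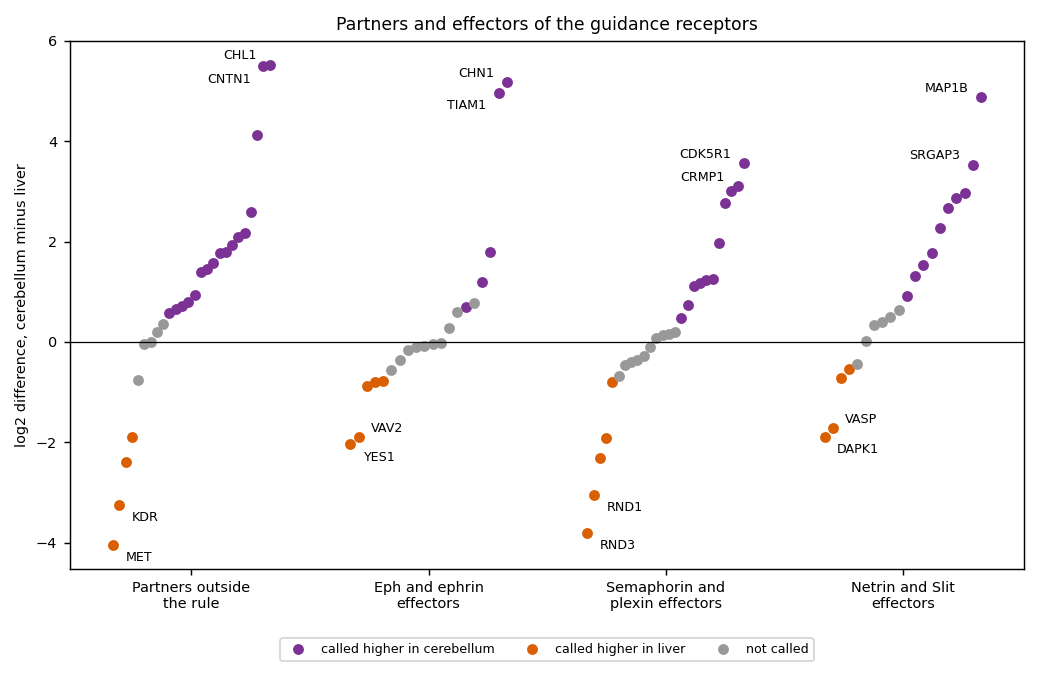
Log2 difference (cerebellum minus liver) of each measured gene of 4 lists of partners and effectors, sorted within each list, with called genes coloured by tissue. CHL1, CHN1, CDK5R1 and MAP1B top their lists and MET, YES1, RND3 and DAPK1 are at the bottom, and each list holds calls toward both tissues.

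Markers of other cell types moved between the tissues beside these genes, and in such bulk samples fewer cells of a type and less RNA per cell cannot be told apart. Of 13 measured endothelial markers 11 were higher in liver and 0 in cerebellum, and their sum was 379 to 630.4 in cerebellum and 3317 to 4987 in liver. STAB2 and CLEC4M, markers of the liver sinusoid, averaged 10.6 and 4.66 in cerebellum. The sum includes them, so the size of its difference depends in part on the list. CLDN5, an endothelial tight junction gene, averaged 172 in cerebellum and 195 in liver and was not called (adjusted p = 0.463). VWF averaged 42.1 ± 26.8 and 74.1 ± 26.8, overlapped between the tissues and was not called either (adjusted p = 0.117). EFNA1 and the endothelial genes NRP1, NRP2, EPHB4 and PLXND1 went in the direction of the sum, whereas UNC5B was higher in cerebellum and ROBO4 was not called. Of 10 macrophage markers 10 were higher in liver (sum 375 to 782 in cerebellum and 5262 to 9108 in liver), and of 8 markers of fibroblasts, stellate and mural cells 7 (sum 531 to 1293 and 1643 to 4273). Of 9 lymphocyte markers 7 were higher in liver (sum 213 to 270.3 and 480.2 to 785), and 5 of them averaged under 16.8 in cerebellum. Bile duct markers were mixed, with 2 of 7 higher in liver and 1 higher in cerebellum (sum 490.4 to 1887 and 1216 to 2407). The 1887, in cerebellum replicate 1, is mostly SPP1, at 1699 there and at 338 and 307 in replicates 2 and 3. EPCAM and CFTR averaged under 16.8 in cerebellum. The part of these cells in the differences of the guidance genes was not tested.

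Within the cerebellum, oligodendrocyte markers were uneven, with a sum over 7 genes of 5937 in replicate 1, 2027 in replicate 2 and 2571 in replicate 3, against 513 to 691 in liver. That sum is carried by MBP, at 4297, 966 and 1481 in replicates 1, 2 and 3, and 5 of the 7 markers were highest in replicate 1. Of the 60 guidance genes 16 had their highest cerebellum value in replicate 1, and 10 of these had their lowest in replicate 2. Only 2 of the 7 oligodendrocyte markers had both. The share of all features in this order was not computed, so the order is not read as a trait of the guidance genes. The 10 guidance genes include 6 of the 19 genes called higher in cerebellum, EPHB3, PLXNA3, PLXNB3, SEMA4D, SEMA6A and SEMA6C. Without cerebellum replicate 1, PLXNB3 was not called, as given above. Of the 7 oligodendrocyte markers 5 were higher in cerebellum and 1 higher in liver. Astrocyte and Bergmann glia markers (6 of 8 higher in cerebellum) summed to 5299, 9532 and 6348 in replicates 1, 2 and 3, against 579.5 to 1389.7 in liver, and Purkinje cell markers (9 of 9) to 7431, 11652 and 8536, against 949 to 1003. Of the 60 guidance genes 23 had their highest cerebellum value in replicate 2, and 21 in replicate 3. All 8 granule cell markers were higher in cerebellum. What these cell types contribute to the spread between cerebella was not tested.

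Among the livers, replicate 3 stood apart for several guidance genes. It differed at least 2-fold (on the log2 scale with its pseudocount) from the mean of the other 2 livers for 6 of 60 genes, EFNA1, EPHA10, PLXNC1, ROBO1, SEMA4G and SEMA7A, against 3 genes for liver replicate 1, 2 for liver replicate 2 and cerebellum replicate 2, and 0 for cerebellum replicates 1 and 3. EFNA1, SEMA4G, SEMA7A and EPHA10 were low there and PLXNC1 and ROBO1 high. The share of all features off by 2-fold was not computed. Over all features the median absolute log2 shift was 0.281 for liver replicate 3 and 0.276 for liver replicate 1, and over the guidance genes 0.372 and 0.312. The hepatocyte sum of liver replicate 3 was 18673, against 23006 and 21949.8 on the other livers. Its sums of endothelial (4987), macrophage (9108), fibroblast (4273), lymphocyte (785) and bile duct markers (2407) were each the highest of the 6 arrays. NRP1, NRP2 and PLXND1 also had their highest value on this array and EPHB4 its lowest liver value. Among the livers, 18 of the 60 guidance genes were highest in replicate 3, 24 in replicate 1 and 18 in replicate 2. Of the 14 genes called higher in liver, 5 were highest in replicate 3. The part of these cells was not tested. Without liver replicate 3, 19 of the 61 genes were called higher in cerebellum and 16 higher in liver. In the same fit 7670 of the 15143 features were called. Of all these calls 51.7% lay toward cerebellum, against 54.3% of the calls among the 61 genes. The median log2 difference was -0.05 over the 61 genes and 0.00424 over all features. The largest differences stayed, with EPHA6 at 4.81, NRP1 at -3.19 and EFNA1 at -3.67.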

How the data were processed

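RNA of 3 cerebellum and 3 liver samples was measured on 1 array each, grouped by the tissue in the sample titles. The authors deposited linear intensity values for 15143 features (transcript clusters, about 1 gene each); per the labels, ribosomal RNA was reduced before labelling, and per the submitters' processing notes GCOS was used. How probes were summarised is not given in the sources used here. On the 6 arrays the values are identical once sorted, so they had been quantile normalized, and 93 values per array lie below 0, so background had been subtracted. No total signal can be compared, and mismatches to human probes can shift levels between genes.

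Genes were named from the platform annotation (12685 features with 1 symbol, 1780 with several, 678 with none). Of several features with the same symbol only the brightest on average was kept. A further 5 features with several symbols name a guidance gene and were not used.

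Values below 0 were set to 0 and transformed as log2(intensity + 16.8), the 10th percentile of all values, which understates differences of dim genes. limma 3.58.1 in R 4.3.3 (lmFit, eBayes, two-sided) compared the tissues over all features without a block, and the script was tested on simulated data. The number of arrays limits precision.

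The genes, lists and tests were chosen with earlier results of these data known. By rule, values on each array are given for the called gene with the largest difference in each direction of each family. The rule also covers every gene called higher in liver and the 10 largest differences. Other genes were named after their values were seen. Some of these also have values on each array, among them DCC, EFNB2, EPHA4, PLXNC1, ROBO1, ROBO4 and SLIT1. Alternatives were a replicate block, other pseudocounts and normalizations, a filter on dim features, other call rules, a variance trend, the mean of shared features, leaving out each array and leaving out UNC50, the last chosen after seeing the data. The labels give same-numbered arrays the same sex and age but not that the animals are the same, so they were not treated as pairs. Of the 61 genes, 60 matched a RefSeq gene by symbol, used only for which genes adjoin.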

Additional observations from a re-analysis of the deposited data

How the results depend on the processing

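Of the 33 called guidance genes, 27 kept their direction and call under every alternative run on them (other pseudocounts, alignment on general genes, the filter, the variance trend, the replicate block and each left-out array). Renewed quantile normalization and centring on the median could change nothing, since the arrays share one distribution. The other 6 were EFNB1, NTN3, PLXNB1, PLXNB3, SEMA4F and SEMA4G, whose losses are given with their values, and none of the 33 turned. With the replicate block the 61 genes held 19 calls toward cerebellum and 13 toward liver, and EFNB1 was the one called gene whose call changed (adjusted p = 0.0502), while the calls over all features were 7532, against 7662 without the block. Deviations of same-numbered arrays from their tissue means correlated with r = 0.11, 0.16 and -0.14, and not every array correlated best with its own number, so the numbers were not taken as pairs. The counts over the 61 genes were 17 to 21 toward cerebellum and 11 to 16 toward liver when 1 array was left out. In these fits 6113 to 7670 of all 15143 features were called. The median log2 difference of the 61 genes lay between -0.0531 (without liver replicate 3) and 0.18 (without liver replicate 1). Over all features it was 0.00424 and 0.0557 in the same fits. A call rule that also asks for a 2-fold difference left 4997 of all features. The treat test of limma against a 2-fold difference left 2645 of all features, with 8 guidance genes toward cerebellum and 4 toward liver. Both rules ask for more. Of the guidance genes called by treat 66.7% lay toward cerebellum, against 49.0% of all features it called. With arrays aligned on general genes the median of the 61 genes was 0.31, against 0.23 over all features, and 62.5% of all calls lay toward cerebellum, against 52.8% before. Under this alignment 5 genes that were never called changed sign, EPHA1 to 0.0428, NTN1 to 0.16, PLXNC1 to 0.16, SEMA3B to 0.10 and SEMA4C to 0.15. Leaving out 1 array gave both signs for 13 genes that were not called. Their log2 differences ranged from -0.11 to 0.19 for EFNA3, -0.17 to 0.39 for EFNB2, -0.0651 to 0.452 for EFNB3, -0.293 to 0.0258 for EPHA1, -0.629 to 0.0775 for EPHA10 and -0.0549 to 0.258 for EPHA8. They ranged from -0.195 to 0.0748 for NTN1, -0.32 to 0.37 for PLXNC1, -0.0531 to 0.129 for ROBO3, -0.276 to 0.057 for SEMA3B, -0.12 to 0.24 for SEMA3C, -0.188 to 0.0878 for SEMA4C and -0.26 to 0.39 for SEMA7A. Without dim features 55 of the 61 genes were tested, with 18 calls toward cerebellum and 14 toward liver. In this run 7177 of the 12553 features tested were called, 53.3% of them toward cerebellum. Beyond the construction of the call rules and the alignment, the cause of these changes was not tested. The means of EFNB3, SEMA3A, SEMA3C, DCC and ROBO3 lay below 38.3, the 25th percentile of all values, in both tissues, so differences of these 5 genes are poorly measured.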
